A study of Mus musculus with 4 samples.

Results

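Autophagy and lysosome genes were examined in mouse ESCs by RNA-seq. The group held 31 genes out of 55335 genes listed in the count table. They were chosen by name for their roles, and all 31 were found by symbol and Ensembl identifier. The cells were AB2.2, a mouse ESC line grown on mouse embryonic fibroblast (MEF) feeders in medium with fetal bovine serum, leukemia inhibitory factor, CHIR99021 (an inhibitor of GSK3) and PD0325901 (an inhibitor of MEK). The 2 control libraries came from cells without added lactate, and the 2 lactate libraries from cells kept in 50 mM lactate for 24 h. All libraries came from this single cell line. No label says whether the libraries of a group came from separate cultures, so the p-values measure the spread between these libraries, which may be technical.

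Autophagy is the process by which a cell wraps part of its cytoplasm in a double membrane, the autophagosome, and delivers it to the lysosome for breakdown. The ULK kinase complex starts the process and a phosphatidylinositol 3-kinase complex marks the membrane. Ubiquitin-like conjugation then attaches proteins of the Atg8 family to the membrane, and cargo receptors bind to these. The transcription factors TFEB and TFE3 drive many lysosomal and autophagy genes, and in ESCs TFE3 is also known for its place in the control of exit from the pluripotent state.

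Reads counted on genes numbered 18067562 to 19077885 per library, and the 31 genes took 54141 to 66732 of them, or 0.300% to 0.352%. The share was 0.300% and 0.328% in control and 0.334% and 0.352% in lactate. Reads on mitochondrial genes made up 5.48% and 5.72% of the total in the libraries numbered 1, control first, and 2.43% and 2.82% in those numbered 2. The labelled cell type was checked with 10 pluripotency markers, among them Pou5f1, Nanog and Sox2. All 10 were tested, and their summed level was 4183 and 5933 FPKM in the control and 4581 and 7601 FPKM in the lactate libraries. At an unadjusted p-value under 0.05 from edgeR, 3 of them were higher in lactate (Sox2, Zfp42 and Klf4) and 1 lower (Utf1). Over all genes tested, 11.7% were higher and 11.4% lower at such a p-value. FPKM is the number of fragments as RSEM gives it, scaled to transcript length and library size. The cultures also hold feeder cells, and 20 fibroblast markers summed to between 360 and 458 FPKM in the control and between 402 and 428 FPKM in the lactate libraries. None of the 20 markers was at 0 in any library. Of these markers 2 were higher and 2 lower at an unadjusted p-value under 0.05, beside the same 11.7% and 11.4% of all genes. In bulk RNA, fewer cells of a type and less RNA per cell cannot be told apart, and the part of feeder RNA in the values below was not tested.

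All 31 genes were expressed at above 1 FPKM in every library. Lamp1, a glycoprotein that lines the lysosomal membrane, had the highest level in control ESCs at 255 ± 3.51 FPKM (SD, n = 2). It was followed by the protease Ctsd at 180.1 ± 33.8, the Atg8 family member Gabarapl2 at 132 ± 36.9, the protease Ctsl at 131 ± 10.7, the cargo receptor Sqstm1 at 106 ± 13.5 and the kinase Ulk1 at 105 ± 4.79 FPKM. The ranges of 1 SD overlap between Ctsd and Gabarapl2, between Gabarapl2 and Ctsl, and between Sqstm1 and Ulk1, so these neighbours cannot be ordered. Ulk2, the second ULK kinase, was lowest at 1.715 ± 0.149 FPKM, and Optn and Atg9a were next at 6.63 ± 0.537 and 8.20 ± 1.499 FPKM. Ulk1 and Ulk2, which are close relatives, thus lay far apart in level.

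**Figure D1:**
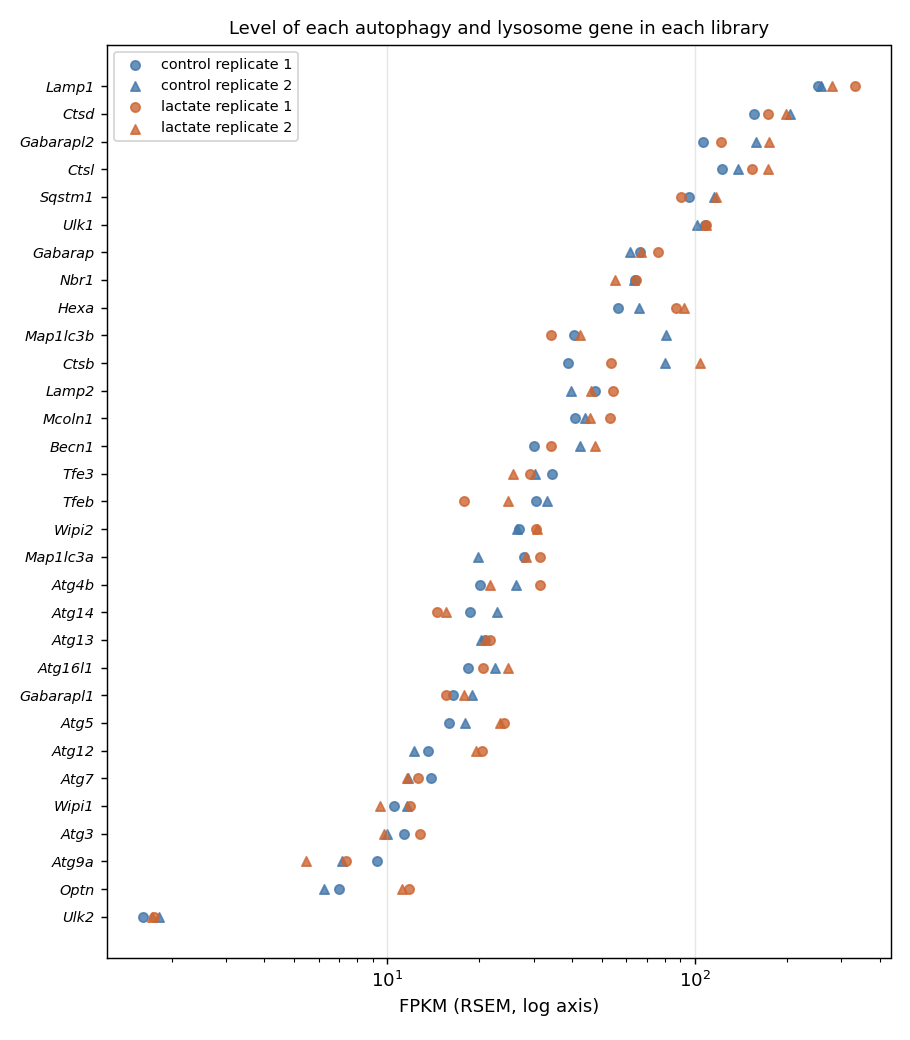
Level of each of the 31 genes in each library, in FPKM on a log axis, ordered by the mean of the 2 control libraries. Blue points are control and orange points lactate libraries, with circles for replicate 1 and triangles for replicate 2. Levels run from 1.61 FPKM for Ulk2 to 332 FPKM for Lamp1.

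To ask whether lactate supplementation changed these genes, the raw counts of the lactate and control libraries were compared with the quasi-likelihood test of edgeR over 18661 genes. A call needed both an adjusted p-value below 0.05 and more than a 2-fold difference. None of the 31 genes met both, beside 0.900% of all genes tested. None passed at an adjusted p-value under 0.05 alone either, beside 0.991% of all genes. With a term for the replicate number, edgeR passed 16 of the 31 at this threshold, beside 44.5% of all genes. The labels do not say what a replicate number marks, so that term was not used in the main fit. DESeq2 called none of the 31 and gave 1, Tfeb, an adjusted p-value below 0.05 at less than 2-fold, beside 4.99% of the genes it tested. Without adjustment, edgeR gave 4 of the 31 a p-value under 0.05 with a higher level in lactate (Optn, Atg12, Atg5 and Hexa) and 3 with a lower level (Tfeb, Atg14 and Tfe3). The shares over all genes were 11.7% higher and 11.4% lower. Together these 7 are 22.6% of the 31 genes and 23.1% of all genes had such a p-value, so the share among the members is near the background.

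The normalised levels (CPM, counts scaled to library size with TMM factors) of the lactate libraries lay above those of both control libraries for 8 of the 31 genes and below for 7. The other 16 overlapped. Over all genes tested the lactate libraries lay above for 27.0% and below for 25.9%, beside 25.8% and 22.6% of the members. The median log2 fold change of lactate over control was 0.04 in the 31 genes and 0.01 in all genes. The estimate was above 0 for 20 members and below 0 for 11, beside 9522 and 9139 of the 18661 genes tested. The number of members above 0 changed with the setting, from 15 without the filter on low counts to 22 with library totals alone. In the main fit the estimates of the members ran from -0.73 for Tfeb to 0.68 for Optn. The 95% confidence interval stayed within a 2-fold change in both directions for 29 of the 31 genes, with Tfeb and Optn as the exceptions. It did so for 11875 of the 18661 genes tested, but those include genes with far fewer reads. The SE was at most 0.21 among the members and up to 1.33 over all genes, so the 2 shares are not alike.

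**Figure D2:**
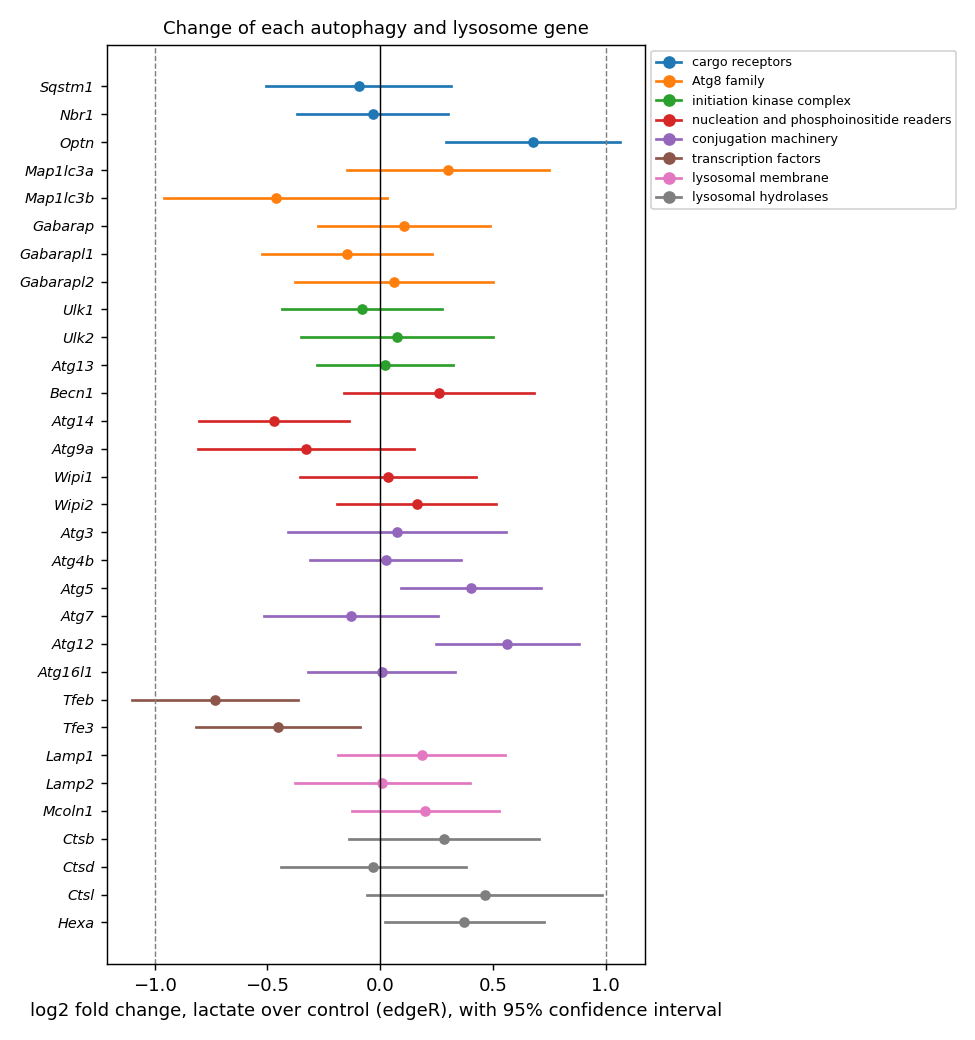
Log2 fold change of lactate over control for each of the 31 genes, in the order of their roles, with the 95% confidence interval from edgeR. Dashed lines mark a 2-fold change. Intervals of 24 genes include 0, and those of Tfeb and Optn reach past a dashed line.

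The transcription factors TFEB and TFE3 control lysosomal biogenesis, and both of their genes had lower estimates in lactate. Tfeb (chromosome 17, 47737030 to 47792419, plus strand, GRCm38) was at 48.5 and 53.4 CPM in control replicates 1 and 2 and at 28.1 and 33.3 CPM in the lactate replicates, and pairs of values below follow this order. Tfe3 (chromosome X, 7762560 to 7775202, plus strand) was at 86.8 and 75.3 CPM in control and at 64.0 and 54.5 CPM in lactate. In both genes each lactate library lay below each control library. The log2 fold change of Tfeb was -0.73 ± 0.15 (SE), with a 95% confidence interval from -1.10 to -0.36 and an adjusted p-value of 0.0678 (quasi-likelihood test of edgeR, adjusted by Benjamini-Hochberg). It was the smallest adjusted p-value among the 31 genes. DESeq2 gave Tfeb an adjusted p-value of 0.0201, and edgeR without the filter on low counts gave 0.0111. Both settings also passed more of all genes at this threshold, 846 of 16965 by DESeq2 and 1647 of 32923 without the filter. The main fit passed 185 of 18661. The adjusted p-value of Tfeb was 0.0749 by edgeR on RSEM expected counts and 0.321 by limma on log2(FPKM + 1). With 1 library left out at a time, its log2 fold change ran from -0.86 to -0.64. In such a fit a lone library is assumed to vary like the other group. Tfeb thus lay on either side of the threshold, depending on the setting. The log2 fold change of Tfe3 was -0.45 ± 0.15, with an interval from -0.82 to -0.09 and an adjusted p-value of 0.151 by the same edgeR test. In FPKM, Tfeb went from 31.9 ± 1.89 in control to 21.2 ± 4.94 in lactate, and Tfe3 from 32.3 ± 2.79 to 27.4 ± 2.58 (SD, n = 2 each). The log2 ratio of these FPKM means was -0.59 for Tfeb and -0.24 for Tfe3, both smaller in size than the estimates from counts.

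**Figure D3:**
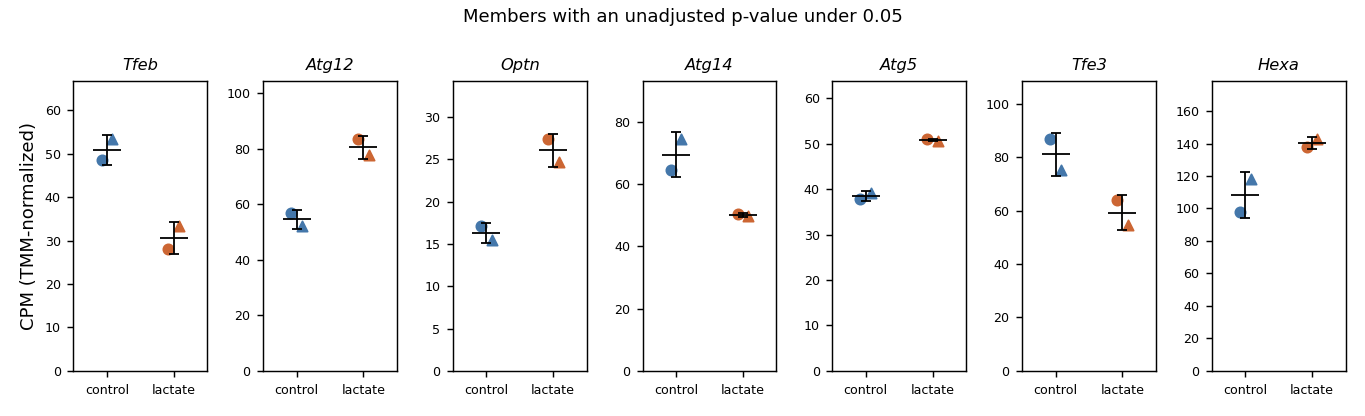
CPM in each library for the 7 genes with an unadjusted p-value under 0.05, ordered by that p-value. Points are single libraries (circles replicate 1, triangles replicate 2), horizontal bars the mean of 2 libraries and error bars the SD. In every one of these genes the lactate libraries lie apart from the control libraries, as for Tfeb with 48.5 and 53.4 CPM in control and 28.1 and 33.3 CPM in lactate. The genes were chosen by a p-value from these same libraries, so the separation adds no support.

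TFEB and TFE3 bind the E-box CACGTG, and its extended form TCACGTGA is called the CLEAR element here. To show where these letters lie, the promoters of the members were read from RefSeq sequence on GRCm38.p6, from 250 bases before to 50 after the start that RefSeq gives. A promoter was at hand for 26 of the 31 genes, the others being Map1lc3a, Becn1, Atg12, Atg16l1 and Ctsb. The E-box, which reads the same on both strands, was in 8 of the 26 (30.8%) and in 1957 of all 27025 promoters (7.24%). The 8 were Atg14, Atg5, Atg3, Atg7, Lamp1, Mcoln1, Ctsd and Ctsl. The CLEAR element, which contains the E-box, was in the 3 promoters of Ctsd, Mcoln1 and Atg3 (11.5%) and in 272 of all promoters (1.01%). The ATF4 motif TGATGNAA was found on either strand in Ctsl alone (3.85%, beside 4.06% of all promoters). The antioxidant response motif TGACNNNGC was in Atg13, Ctsd, Map1lc3b, Hexa and Ulk2 (19.2%, beside 12.5%). The shares are descriptions of these windows and were not tested.

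The windows around the E-boxes of 6 members are shown 5′ to 3′ on the strand of the gene, with the E-box or CLEAR element in capitals. Atg14 and Atg5 are shown as the members with the smallest p-values that hold a motif, and the other 4 were chosen after the matches were seen, 3 for a CLEAR element and Lamp1 for its 4 E-boxes. Atg14 is at chr14:47568405-47568460 (minus strand), Atg5 at chr10:44268300-44268355 (plus), Lamp1 at chr8:13159075-13159176 (plus), Mcoln1 at chr8:3500448-3500505 (plus), Atg3 at chr16:45158732-45158789 (plus) and Ctsd at chr7:142387894-142387951 (minus).
Atg14: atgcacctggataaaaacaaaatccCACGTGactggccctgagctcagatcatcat
Atg5: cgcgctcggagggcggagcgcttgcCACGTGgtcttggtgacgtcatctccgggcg
Lamp1: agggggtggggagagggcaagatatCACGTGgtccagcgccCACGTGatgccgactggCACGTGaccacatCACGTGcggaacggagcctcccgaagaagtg
Mcoln1: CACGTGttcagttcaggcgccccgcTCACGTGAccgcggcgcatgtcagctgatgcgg
Atg3: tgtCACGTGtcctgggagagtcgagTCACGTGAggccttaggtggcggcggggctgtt
Ctsd: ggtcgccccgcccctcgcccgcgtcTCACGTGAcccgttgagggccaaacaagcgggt
The first base of the E-box lay 1 base before the start in Atg14 and 14 bases before it in Atg5. For 4 of the 26 members the RefSeq start lay more than 1000 bases inside the gene as GENCODE gives it, namely 2215 bases for Atg14, 27999 for Atg7, 3405 for Atg4b and 1886 for Wipi2, so these windows are not at the outermost start. The 4 E-boxes of Lamp1 began 61, 45, 28 and 15 bases before its start. Both E-boxes of Mcoln1 and of Atg3 are in these windows, while Ctsd has another farther from its start, at 245 bases. Among these 6 genes the level in lactate was higher for Atg5 and lower for Atg14 at an unadjusted p-value under 0.05, and the intervals of Lamp1, Mcoln1, Atg3 and Ctsd included 0. No E-box was found in these windows of Tfeb, Tfe3, Optn or Hexa.

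Initiation was represented by Ulk1 and Ulk2, the kinases that start autophagy, and Atg13, their regulatory partner. Ulk1 was at 487 and 425 CPM in control and at 449 and 413 CPM in lactate. Ulk2 was at 9.37 and 9.01 CPM in control and at 10.1 and 9.23 CPM in lactate, and Atg13 ranged from 62.5 to 65.9 CPM over all 4 libraries. The groups overlapped for all 3 genes. The log2 fold changes were -0.08, 0.07 and 0.02. The 95% confidence interval of Atg13 ran from -0.28 to 0.32, so the data leave room for changes of that size in either direction. In FPKM, Atg13 was at 20.5 ± 0.516 in control, between the levels of Ulk1 and Ulk2.

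Nucleation was represented by Becn1 and Atg14, subunits of the phosphatidylinositol 3-kinase complex, Atg9a, a membrane protein on the vesicles that seed the autophagosome, and Wipi1 and Wipi2, which bind the lipid that the kinase makes. Atg14 (chromosome 14, 47540893 to 47570649, minus strand) brings the kinase to the sites where autophagosomes form. It was at 64.4 and 74.5 CPM in control and at 50.5 and 49.7 CPM in lactate, so both lactate libraries were below both controls. Its log2 fold change was -0.47 ± 0.14, with an interval from -0.80 to -0.14 and a Benjamini-Hochberg adjusted p-value of 0.123 from edgeR. Atg9a was also lower in both lactate libraries, at 20.8 and 15.9 CPM in control and 15.5 and 13.6 CPM in lactate, with a log2 fold change of -0.33 and an interval from -0.81 to 0.15. Becn1, the partner of Atg14 in this complex, was at 47.1 and 52.3 CPM in control and at 51.3 and 67.9 CPM in lactate. Its groups overlapped, as did those of Wipi1 and Wipi2. Wipi1 ranged from 22.8 to 27.4 CPM and Wipi2 from 93.5 to 119 CPM over the 4 libraries. The log2 fold changes of Becn1, Wipi1 and Wipi2 were 0.26, 0.04 and 0.16. Their control levels were 36.2 ± 8.80 FPKM for Becn1, 26.7 ± 0.375 for Wipi2 and 11.1 ± 0.749 for Wipi1, and Atg14 was at 20.7 ± 3.02 FPKM.

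Conjugation was represented by 6 genes. Atg7 is the activating enzyme, Atg3 the conjugating enzyme for Atg8 proteins, and Atg4b the protease that trims them. Atg12, Atg5 and Atg16l1 encode the complex in which Atg12 is joined to Atg5 and Atg16l1 brings both to the membrane. Atg12 was at 57.0 and 52.2 CPM in control and at 83.5 and 77.7 CPM in lactate. Atg5 (chromosome 10, 44268358 to 44364291, plus strand), the protein to which Atg12 is joined, was at 37.8 and 39.2 CPM in control and at 51.1 and 50.6 CPM in lactate. Both genes were higher in each lactate library than in each control library. Their log2 fold changes were 0.56 ± 0.13 for Atg12 and 0.40 ± 0.13 for Atg5, with intervals from 0.25 to 0.88 and from 0.09 to 0.71. The corresponding p-values from edgeR, after Benjamini-Hochberg adjustment, were 0.0814 and 0.141. Atg16l1, the third gene of this complex, was at 61.0 and 68.3 CPM in control and at 62.3 and 67.5 CPM in lactate. Its lactate libraries fell within the range of the controls, with a log2 fold change of 0.01 and an interval from -0.32 to 0.33. Atg7 was at 22.6 and 21.8 CPM in control and at 18.8 and 21.7 CPM in lactate, with a log2 fold change of -0.13. Atg3 and Atg4b overlapped between the groups, with ranges of 18.7 to 25.8 and 44.9 to 51.4 CPM and log2 fold changes of 0.08 and 0.02. In control FPKM these genes lay within a narrow band, from 10.7 ± 0.919 for Atg3 over 12.8 ± 1.57 for Atg7, 12.9 ± 0.990 for Atg12, 16.9 ± 1.49 for Atg5 and 20.4 ± 2.85 for Atg16l1 to 23.1 ± 4.31 for Atg4b.

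The Atg8 family comprised Map1lc3a and Map1lc3b, which encode LC3 proteins, and Gabarap, Gabarapl1 and Gabarapl2. Map1lc3a was at 23.7 and 17.9 CPM in control and at 26.3 and 24.99 CPM in lactate, and Map1lc3b was at 89.0 and 128 CPM in control and at 72.0 and 85.5 CPM in lactate. The lactate libraries were thus above the controls for Map1lc3a and below them for Map1lc3b, with log2 fold changes of 0.30 ± 0.19 and -0.46 ± 0.20. Their intervals, from -0.15 to 0.75 and from -0.96 to 0.03, both included 0. Gabarapl1 lay below the controls in lactate by a small margin, at 20.6 and 22.6 CPM against 18.8 and 20.2 CPM, with a log2 fold change of -0.15. Gabarap and Gabarapl2 overlapped, with ranges of 59.4 to 76.0 and 139 to 183 CPM and log2 fold changes of 0.11 and 0.06. In FPKM the family was led by Gabarapl2 in all 4 libraries, at 106 to 175 FPKM, and Gabarapl1 was lowest in all 4, at 15.6 to 18.95 FPKM. Control levels were 64.1 ± 3.17 FPKM for Gabarap, 60.6 ± 28.1 for Map1lc3b, 23.8 ± 5.74 for Map1lc3a and 17.7 ± 1.796 for Gabarapl1.

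Cargo receptors were represented by Sqstm1 (p62), Nbr1 and Optn, which bind ubiquitinated cargo and Atg8 proteins. Optn (chromosome 2, 5020642 to 5064051, minus strand), known for its part in the removal of damaged mitochondria, was at 17.1 and 15.4 CPM in control and at 27.4 and 24.7 CPM in lactate. Each lactate library was above each control library. The log2 fold change was 0.68 ± 0.16, with an interval from 0.29 to 1.06 and a Benjamini-Hochberg adjusted p-value of 0.0834 from edgeR. It was the largest estimate in either direction after that of Tfeb. Only these 2 members differed by more than 1.5-fold, beside 3701 of the 18661 genes tested, which include genes with far fewer reads. In FPKM, Optn went from 6.63 ± 0.537 to 11.5 ± 0.445 (SD, n = 2 each). Sqstm1, which is itself broken down by autophagy as a protein, was at 164 and 194 CPM in control and at 149 and 186 CPM in lactate. Nbr1 was at 222 and 208 CPM in control and at 224 and 197 CPM in lactate. Both overlapped, with log2 fold changes of -0.10 and -0.03 and intervals from -0.51 to 0.32 and from -0.37 to 0.30. In control FPKM Sqstm1 led the 3 receptors, with Nbr1 at 63.9 ± 0.445.

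The lysosomal membrane was represented by Lamp1 and Lamp2, its major glycoproteins, and Mcoln1, a cation channel that releases calcium. Lamp1 was at 419 and 409 CPM in control and at 515 and 425 CPM in lactate, and Mcoln1 at 60.0 and 64.2 CPM in control and 75.6 and 67.1 CPM in lactate. Both were higher in each lactate library than in each control library. Their log2 fold changes were 0.18 and 0.20, with intervals from -0.19 to 0.56 and from -0.13 to 0.53. Lamp2 overlapped, at 135 and 109 CPM in control and 131 and 115 CPM in lactate, with a log2 fold change of 0.01 and an interval from -0.38 to 0.40. Control levels of Lamp2 and Mcoln1, at 43.6 ± 5.63 and 42.5 ± 2.20 FPKM, were far below that of Lamp1.

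The hydrolases were the cathepsins Ctsb, Ctsd and Ctsl, which are proteases, and Hexa, the alpha subunit of beta-hexosaminidase A. Hexa (chromosome 9, 59539540 to 59565109, plus strand) was at 98.1 and 118 CPM in control and at 138 and 143 CPM in lactate. Both lactate libraries were above both controls, with a log2 fold change of 0.37 ± 0.15, an interval from 0.02 to 0.73 and a Benjamini-Hochberg adjusted p-value of 0.198 from edgeR. Ctsl was at 129 and 181 CPM in control and at 186 and 241 CPM in lactate, with a log2 fold change of 0.46 ± 0.21 and an interval from -0.06 to 0.98. Its lactate libraries also lay above its controls, but control replicate 2 and lactate replicate 1 were close. Ctsb was at 172 and 215 CPM in control and at 213 and 258 CPM in lactate, and Ctsd at 179.9 and 226 CPM in control and 183 and 215 CPM in lactate. Both overlapped between the groups, and their log2 fold changes were 0.28 and -0.03. Hexa and Ctsb had control levels of 61.1 ± 6.68 and 59.6 ± 29.5 FPKM. In all 3 cathepsins the libraries numbered 2 were higher than those numbered 1 of the same group.

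The FPKM of some members also moved with the transcript length that RSEM assigned in each library. The mean length of Ctsb was 4743 and 3063 bases in control replicates 1 and 2 and 4523 and 3000 bases in lactate replicates 1 and 2. Its FPKM was 38.7, 80.4, 53.4 and 103.8 in the same order, a wider spread between replicates than in CPM. The longest mean length of a library was 1.58 times the shortest for Ctsb, 1.49 times for Atg4b, 1.32 times for Ctsl and 1.27 times for Map1lc3b. The main estimates of differences between groups were therefore taken from counts, and FPKM was used for levels.

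**Figure D4:**
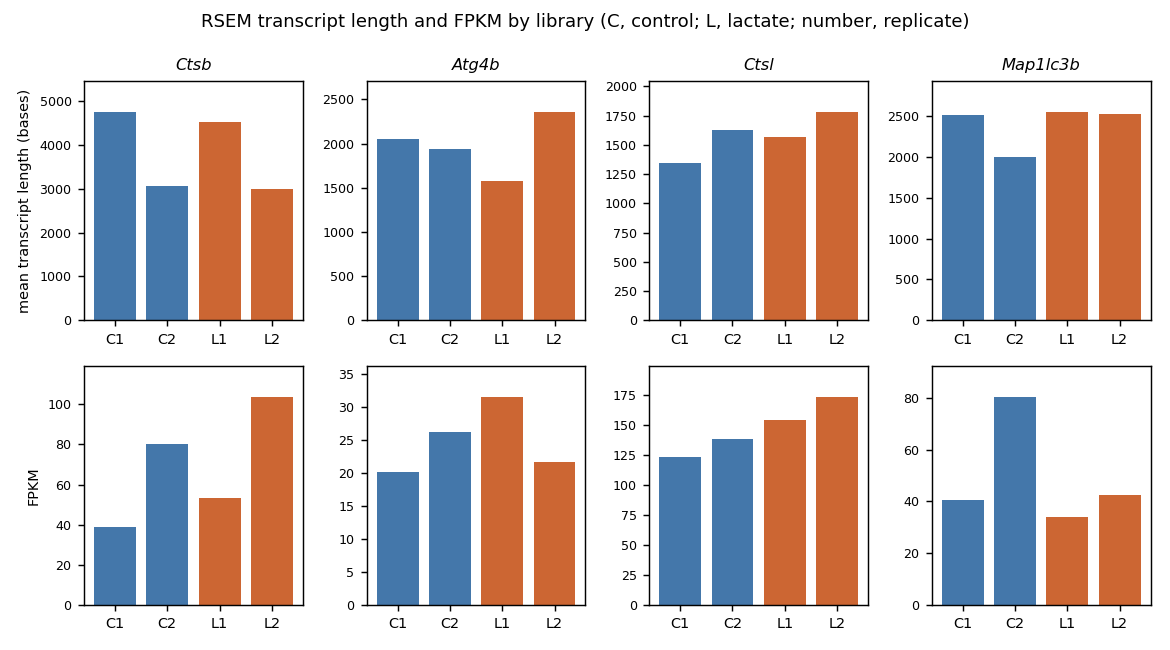
Mean transcript length in bases (top) and FPKM (bottom) that RSEM gave in each library for the 4 members whose length varied most, with blue bars for control and orange bars for lactate. For Ctsb the libraries numbered 1 had the longer transcripts, of 4743 and 4523 bases, and the lower FPKM, of 38.7 and 53.4.

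Exons of 12 of the 31 genes overlap those of another gene in GENCODE release M21, and the sources used here do not say whether the counting used strand. Reads in such stretches cannot be assigned to 1 gene without strand. The overlap covered 43.9% of the exonic bases of Becn1 (with Cntd1 on the other strand), 28.3% of Gabarapl1 and 26.8% of Ctsl. Genes on the same strand overlapped 34.4% of Ctsd (Gm49369), 31.8% of Atg9a (Gm29253) and 6.09% of Ctsl (Gm49230), so these values are less certain. Of the 7 members with an unadjusted p-value under 0.05, Hexa had an overlap of 12.8%, Atg14 of 5.53% and Optn of 1.95%, and no such overlap was found for Tfeb, Tfe3, Atg5 and Atg12.

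The rest of the pathway was covered by 3 lists of genes that share no member with the 31. Of 57 other autophagy genes, all were tested and edgeR called none, with 3 higher and 12 lower at an unadjusted p-value under 0.05, beside 11.7% higher and 11.4% lower over all genes. The lactate libraries lay above the controls for 12 of them (21.1%) and below for 19 (33.3%), beside 27.0% and 25.9% of all genes. DESeq2 gave 3 of them, Bnip3, Atg2a and Vps11, an adjusted p-value below 0.05, beside 4.99% of all genes it tested. Of the 3 it called Bnip3 alone. The median log2 fold change was -0.04. Bnip3, a receptor for mitochondria that is known to respond to hypoxia, was at 59.8 and 43.4 CPM in control and at 23.7 and 22.3 CPM in lactate, with a log2 fold change of -1.17 ± 0.19 and a Benjamini-Hochberg adjusted p-value of 0.0520 from edgeR. Both lactate libraries were well below both controls. The next smallest p-values belonged to the lipid transfer gene Atg2a at a log2 fold change of -0.77 (adjusted p-value of 0.0557 by edgeR and 0.00596 by DESeq2), the tethering genes Vps11 at -0.63 and Vps18 at -0.63, the kinase complex subunit Pik3r4 at -0.60 and the adaptor Plekhm1 at -0.49.

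Of 71 other lysosomal genes, 67 were tested and edgeR called none, with 19 higher and 2 lower at an unadjusted p-value under 0.05, beside the same 11.7% and 11.4% of all genes. DESeq2 called none and gave 2 an adjusted p-value under 0.05, beside 4.99% of all genes it tested. The median log2 fold change was 0.15, beside 0.01 in all genes. The lactate libraries lay above the controls for 33 of the 67 (49.3%) and below for 8 (11.9%), beside 27.0% and 25.9% of all genes. Laptm4b, a lysosomal membrane protein, was at 67.1 and 67.7 CPM in control and at 111 and 118 CPM in lactate. Its log2 fold change was 0.76, with an adjusted p-value of 0.0520 by edgeR. The amino acid sensor Slc38a9 was at 18.2 and 17.1 CPM in control and at 30.3 and 30.5 CPM in lactate, with a log2 fold change of 0.79. The enzymes Galns and Hgsnat and the sorting receptor Igf2r had log2 fold changes of 0.75, 0.63 and 0.55. Mcoln3, a relative of Mcoln1, had 0 and 1 reads in the control and 16 and 15 after lactate supplementation, and no fold change is given for so few reads. It passed the filter on low counts through the lactate libraries alone, yet it is part of the 67, the 19 and the 33 above.

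Of 18 genes that act with or control TFEB and TFE3, 17 were tested and edgeR called none, with 5 higher and none lower at an unadjusted p-value under 0.05, beside 11.7% and 11.4% of all genes. The lactate libraries lay above the controls for 8 (47.1%) and below for 2 (11.8%), beside 27.0% and 25.9%. DESeq2 gave 1 of them, Mitf, an adjusted p-value below 0.05 at less than 2-fold. Over all genes it tested, 4.99% had such an adjusted p-value. Mitf encodes another transcription factor of the same family, and it was at 44.1 and 34.6 CPM in control and at 86.2 and 67.5 CPM in lactate. Its log2 fold change was 0.97 ± 0.19, and its adjusted p-value was 0.0631 by edgeR and 0.00322 by DESeq2, both after Benjamini-Hochberg adjustment. In this fit the estimates of Tfeb and Tfe3 were thus below 0 and that of Mitf above 0. The calcineurin subunits Ppp3ca and Ppp3r1, of a phosphatase that acts on TFEB, had log2 fold changes of 0.55 and 0.41, the repressor Zkscan3 0.51 and the folliculin partner Fnip2 0.37. The median of the list was 0.18.

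**Figure D5:**
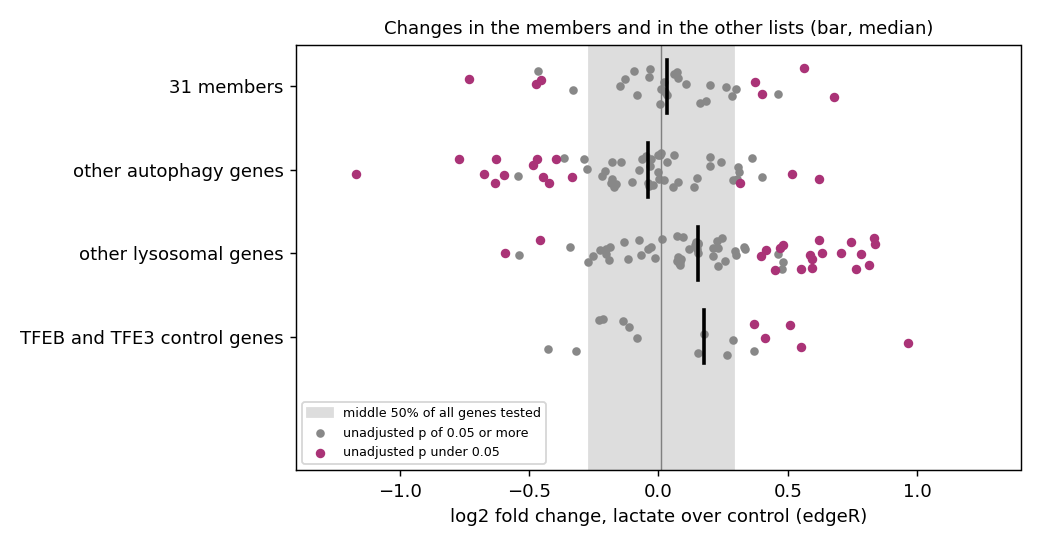
Log2 fold change of lactate over control for the 31 genes and for the tested genes of the 3 other lists, 1 point per gene. Magenta points had an unadjusted p-value under 0.05 and black bars are medians, which were 0.04, -0.04, 0.15 and 0.18 from top to bottom. The grey band holds the middle 50% of all genes tested, from -0.27 to 0.29, and Mcoln3 is not drawn because of its few reads.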

How the data were processed

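RNA-seq was performed on 2 control and 2 lactate libraries of AB2.2 mouse ESCs. Per the study's methods and the submitters' processing notes, the authors trimmed reads with cutadapt 1.16, mapped them with STAR to mm10 and counted them in exons of a GENCODE release. They deposited raw counts per gene and transposable element family, without normalization, and, from RSEM, a table per library with expected counts, TPM and FPKM. TPM was not used here. Strand use in counting is not given in the sources used here.

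Raw counts of genes were tested here in R 4.3.3 with edgeR 4.0.16 (legacy quasi-likelihood form, TMM factors, filterByExpr), which left 18661 genes, with Benjamini-Hochberg adjustment across these genes. The 1153 transposable element families were left out. Calls required an adjusted p-value below 0.05 together with more than a 2-fold difference. The SE is the log2 fold change divided by the square root of F, and 95% intervals use the test's degrees of freedom. Means and SDs are over 2 libraries. With 2 libraries against 2 the smallest two-sided permutation p is 0.333, so p-values come only from models across all genes. The replicates of a group differed beyond sampling noise (chi-square over its degrees of freedom, 32.2 and 31.4), and each was kept. The common biological coefficient of variation was 15.9%. The members had 162 to 9582 reads in a library.

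The members and lists were chosen with earlier results of these data known. Members with an unadjusted p-value under 0.05 or a change over 1.5-fold are given with full statistics, and the others by values and estimates. Of each other list, at most the 6 genes with the smallest p-values under 0.05 are named. Positions and exon overlaps come from GENCODE M21 on GRCm38, in which 30 of the 31 identifiers have the same version, and promoters from RefSeq on GRCm38.p6. Where a gene had more than 1 start, as 3 members did, 1 promoter was used. Alternatives were DESeq2 1.42.0, limma 3.58.1 on log2(FPKM + 1), the rounded expected counts, other scalings and filters, a term for the replicate number, mitochondrial genes left out and each library left out in turn. The test was tried on simulated counts before use, drawn independently for each library. The trial therefore could not show how the test behaves where same-numbered libraries deviate together.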

Additional observations from a re-analysis of the deposited data

How the results depend on the processing

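None of the 31 genes was called under any of 15 alternatives. At an adjusted p-value under 0.05 alone, DESeq2 and edgeR without a filter on low counts each passed 1 member, Tfeb, and leaving out 1 library at a time passed 0 to 1 (Tfeb without lactate replicate 2). The members' median log2 fold change was 0.067 with upper-quartile factors, 0.10 with library totals alone, -0.0082 without the filter and 0.14 with limma on log2(FPKM + 1). The sign of a member differed from the main one in 39 of 465 values and never for 18 members, Tfeb, Tfe3, Atg14, Optn, Atg12, Atg5 and Hexa among them. Of the other autophagy genes, 1 was called by DESeq2, 1 without the filter and 0 to 2 with a library left out (1 without control replicate 2, 1 without lactate replicate 1 and 2 without lactate replicate 2). Of the other lysosomal genes, 1 was called by edgeR without its legacy form and 1 without the filter. That list holds Mcoln3, which has few reads and passed the main filter through the lactate libraries alone. Of the TFEB and TFE3 control genes, 0 to 1 were called with a library left out (1 without lactate replicate 2). Over all genes, 168 calls became 358 with DESeq2, 807 without the filter, 44 with RSEM expected counts, 0 with limma, and 84 to 869 with a library left out. Leaving out control replicate 1 gave 84, control replicate 2 gave 315, lactate replicate 1 gave 642 and lactate replicate 2 gave 869. Higher genes were 103 of 168 calls, and 108 of 148 with library totals alone. With a library left out, 1 group holds a single library, which is assumed to vary like the other group. The causes of these shifts were not tested.

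With a replicate block, 16 members passed an adjusted p-value under 0.05 (11 higher and 5 lower), with Tfeb, Tfe3, Atg14, Optn, Atg12, Atg5 and Hexa among them, beside 8297 of all genes tested (44.5%). None of the 16 was called, as none changed more than 2-fold. Under the block, 1156 genes were called in all, with 1 other autophagy and 1 other lysosomal gene. Deviations from the group means correlated at 0.69 over all genes and 0.74 over the members between same-numbered libraries. There are only 2 pairs and the labels do not say what a number marks, so the pairing was not used. Of the members, Ulk2 had the fewest reads, 162 to 188 per library, so its level is the one most limited by depth.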
